A study of Sus scrofa with 207 samples.

Results

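Calpastatin (CAST) and 3 calpains (CAPN1, CAPN2 and CAPN3) were followed in muscle taken at slaughter from 207 commercial crossbred pigs. Their herd label gives the cross, Pix(DLxDE), and names no farm, and their mean end weight was 110 kg. All animals formed a single group, with no treatment and no controls, and each was profiled on 1 Affymetrix Porcine Genome Array. The members were the probe sets whose only gene symbol in the array annotation was one of these 4 names. They numbered 9 of the 23935 probe sets that are not controls: 5 for CAST, 1 for CAPN1, 1 for CAPN2 and 2 for CAPN3. Probe sets of 1 gene are lettered here in order of their mean, so that CAST-A to CAST-E and CAPN3-A and CAPN3-B run from the brightest to the dimmest, and CAPN1 and CAPN2 stand for their single probe sets. The labels gave 2 traits of each animal. Drip loss, the share of its weight, in percent, lost as fluid by longissimus muscle hung for 48 h in the cold, was 5.37 ± 2.21% (SD, n = 207). Fat area, measured over the same muscle, was 15.0 ± 3.15 cm2 (SD) in all animals but 8, for which it was not given. The labels used here give no age, sex, sire or slaughter day.

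Calpains are cysteine proteases that calcium activates. Calpain 1 and calpain 2, whose catalytic subunits are the products of CAPN1 and CAPN2, share a small regulatory subunit and are inhibited by the protein calpastatin. In meat the 2 enzymes are known for cutting proteins of the myofibril and of its anchors to the membrane after death, and calpastatin for slowing that process. Calpain 3 is found mainly in skeletal muscle, where it binds the giant sarcomere protein titin; it is not held in check by calpastatin, and in humans its loss causes a limb-girdle muscular dystrophy. In the reference gene table, which is of assembly Sscrofa11.1, CAST and CAPN1 lie on chromosome 2, CAPN2 on chromosome 10 and CAPN3 on chromosome 1.

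The arrays carried the signal of skeletal muscle: the 6 measured muscle fibre markers were led by CKM, muscle creatine kinase, at a mean of 14.11 on the log2 scale, near the top of the deposited range. Array medians lay between 5.96 and 6.18. A set of 24 arrays correlated less well than usual with the rest (medians as low as 0.944, where 0.978 was typical), and 13 arrays lacked the poly-A spike-in signal. Precision is limited by how many arrays there are. The samples are separate animals, and fewer cells of a type cannot be told apart from less RNA per cell in such bulk tissue.

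The inhibitor was read by a pair of bright probe sets and by 3 dim ones, and they did not tell the same story. CAST-A, the probe set with the highest mean of the gene, ran from a lowest value of 8.67 through a median of 9.18 to a highest of 10.14 log2 units. Its SD of 0.18 was smaller than that of most others on the array: 8.23% of the probe sets had a lower SD, and the median SD over all of them was 0.25. CAST-B ran from 8.29 through 8.96 to 10.41, with an SD of 0.35, and 86.7% of the probe sets varied less.

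The dim CAST probe sets had means below 6.10, the median of all probe set means. CAST-C ran from 5.09 through 5.91 to 6.88 with an SD of 0.36. CAST-D ran from 4.48 through 5.07 to 5.68, and CAST-E from 4.08 through 5.03 to 5.58. The deposited values have a floor at 4, which holds 1.43% of all values and 0 of the members' values. Brightness depends on the probes as well as on the mRNA, so the levels of different probe sets were not ranked against each other.

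All 4 calpain probe sets were bright. CAPN1, for the catalytic subunit of calpain 1, ran from 7.91 through 8.80 to 9.51 with an SD of 0.27. CAPN2, for that of calpain 2, ran from 9.81 through 10.73 to 11.34 with an SD of 0.23. The middle 50% of the animals, between the quartiles, spanned 1.28-fold for CAPN1 and 1.23-fold for CAPN2.

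CAPN3-A ran from 8.86 through 10.60 to 11.43 with an SD of 0.28, and its second lowest value was 9.75. A single animal thus stood well apart at the low end of its range of 2.57 log2 units. CAPN3-B ran from 6.83 through 8.42 to 9.83 and was the most variable member, with an SD of 0.42 that exceeded the SD of 93.2% of the probe sets.

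**Figure D1:**
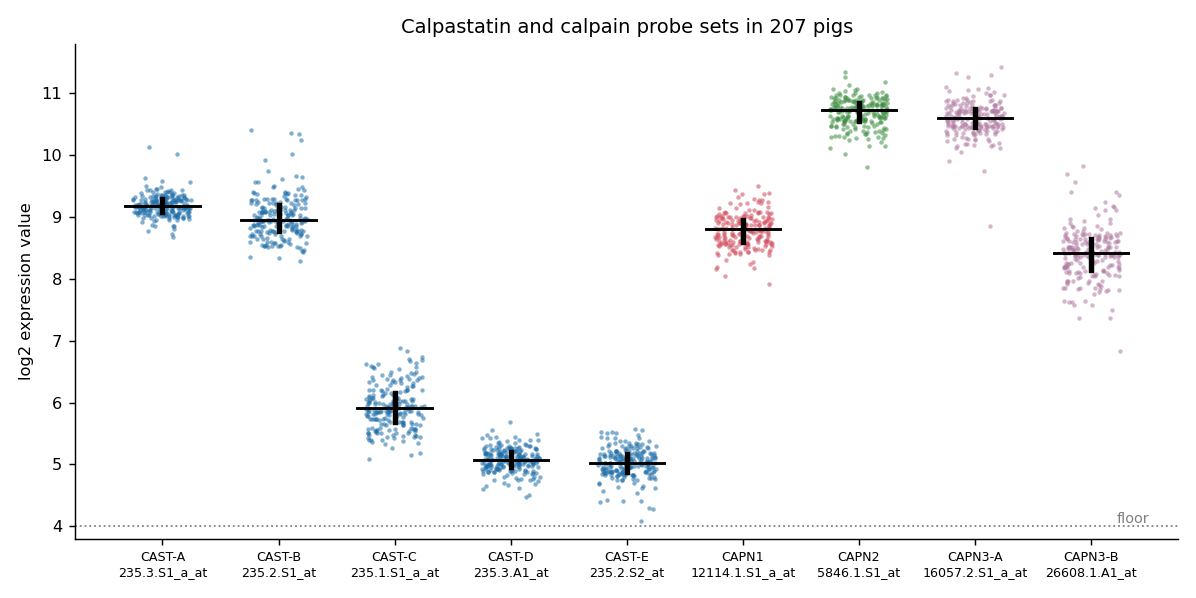
Deposited log2 expression values (vertical axis) of the 9 probe sets, 1 point per animal (n = 207), with the median as a horizontal bar, the interquartile range as a thick vertical bar and the floor at 4 dotted; the array's probe set identifier, without its species prefix, stands under each name. CAST-A forms a narrow band with 2 animals above 10, while CAST-B spreads more widely around a median of 8.96.

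The low-correlation arrays were picked because they depart from the others over all probe sets, so a larger SD on them is largely built into the choice. All members but CAST-D, with 0.186 and 0.192, had a larger SD there than on the other arrays. The SD of CAPN3-A was 0.56 over the 24 low-correlation arrays and 0.21 over all other arrays. For CAST-B it was 0.64 and 0.30, and for CAPN1 it was 0.44 and 0.23. CAST-A, at 0.26 and 0.16, and CAPN2, at 0.31 and 0.22, showed a smaller gap. On the 13 arrays that lack spike-in signal the SD of CAPN3-A was 0.10, against 0.28 on the rest, and that of CAST-B 0.26, against 0.36. CAST-A and CAST-D had a larger SD there than on the rest, and the other members a smaller one. For neither set of arrays was the share of all probe sets with such a difference counted, so these SDs are not read as a trait of the members.

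The 2 bright CAST probe sets did not rise and fall together. By rank their correlation was -0.122 (Spearman's rho, permutation p = 0.081, adjusted p = 0.21 over the 36 pairs of members), and Pearson's r was -0.0854 over 207 animals (two-sided permutation p = 0.22, adjusted p = 0.44). Without the 2 animals farthest from the median of CAST-A, r was -0.216. It was -0.042 with values centred within blocks of 100 title numbers, -0.012 in the lower of the 2 series of title numbers and -0.614 in the higher (n = 33), a difference that was not tested. Over the array, 1699 pairs of bright probe sets of 1 gene, from 1054 genes, had a median r of 0.370, and 8.65% of them had a lower r than the bright CAST pair.

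The variable bright probe set paired instead with a dim one. CAST-B and CAST-C correlated at r = 0.628 (permutation p = 1e-05, the smallest that 100000 permutations can give, adjusted p = 0.00018) and rho = 0.602 (adjusted p = 0.00018). The correlation was positive in 10 of 10 blocks, between 0.246 and 0.886, and stood at 0.622 without the 2 farthest animals, 0.628 in the lower series and 0.641 in the higher. Of all probe sets on the array, 0% had a larger absolute correlation with CAST-C, but 0.990% had one with CAST-B. After removal of the first 5 principal components of all probe sets, r was 0.407. The remaining 8 pairs of CAST probe sets had r between -0.067 and 0.134, and 0 of them passed after adjustment by r or by rho (smallest permutation p 0.055 by r and 0.023 by rho).

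The 2 CAPN3 probe sets were weakly correlated. Their r was 0.218 (permutation p = 0.0020, adjusted p = 0.018) and their rho 0.232 (permutation p = 0.00079, adjusted p = 0.0071). Of the bright pairs of probe sets of 1 gene, whose median r was 0.370, 36.1% had a lower r. Many unrelated probe sets did as well: 18.2% of all probe sets had a larger absolute r with CAPN3-A and 19.4% with CAPN3-B. Without the 2 farthest animals r was 0.320, and it was 0.221 within blocks, 0.217 in the lower series and 0.192 in the higher. The animal with the lowest CAPN3-A value lay 6.29 SD below the mean there and 0.73 SD above it on CAPN3-B, while another animal was the highest on both.

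**Figure D2:**
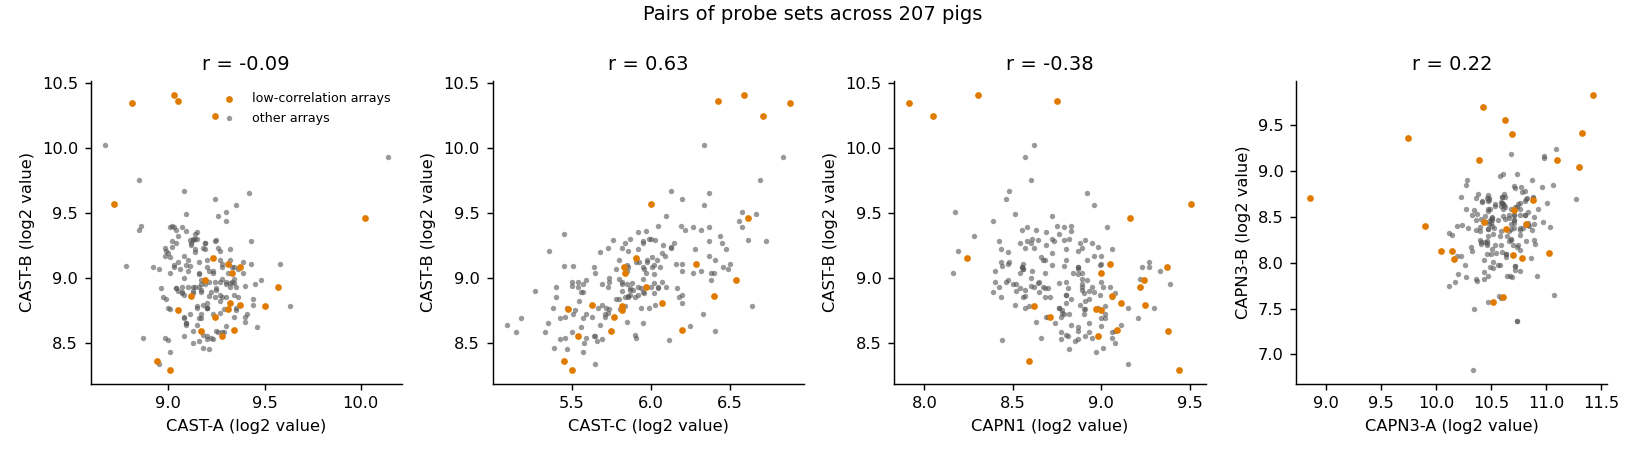
Log2 values of pairs of probe sets, 1 point per animal (n = 207), with the 24 low-correlation arrays in orange and all other arrays in grey; both axes are log2 values. CAST-B follows CAST-C (r = 0.63) but not CAST-A (r = -0.09), and it is lower where CAPN1 is higher (r = -0.38).

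In the values as deposited, whether the inhibitor varied with CAPN1 depended on which CAST probe set was read. With CAPN2 and CAPN3 neither bright CAST probe set had an r that passed. CAST-A had r = 0.0024 with CAPN1 (permutation p = 0.97, adjusted p = 0.99) and rho = -0.0025 (adjusted p = 0.97). This r was -0.020 in the lower series, 0.160 in the higher and 0.017 within blocks. After 5 principal components, where CAST-B had r = -0.109 with CAPN1, CAST-A had r = -0.224, so the contrast between them did not hold there. With CAPN2 its r was 0.065 (adjusted permutation p = 0.54; rho = 0.029). With CAPN3-A it was -0.174 (adjusted permutation p = 0.084; rho = -0.064), and -0.066 without the low-correlation arrays.

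CAST-B was lower in animals with more CAPN1 mRNA. Pearson's r was -0.379 (permutation p = 1e-05, adjusted p = 0.00018) and rho was -0.336 (adjusted p = 0.00018). The correlation was negative in all 10 blocks, from -0.703 to -0.158, and it was -0.392 in the lower series, -0.333 in the higher, -0.373 without the 2 farthest animals and -0.324 without the low-correlation arrays. It was shared with much of the array, since 12.3% of all probe sets had a larger absolute correlation with CAST-B and 9.17% with CAPN1, and after 5 principal components it was -0.109. CAST-C had r = -0.206 with CAPN1 (permutation p = 0.0028, adjusted p = 0.020) but rho = -0.136 (adjusted p = 0.16), and r = -0.023 after the 5 components. With CAPN2 the r of CAST-B was 0.095 (adjusted permutation p = 0.37) and the rho 0.128. With CAPN3-A its r was 0.057 (adjusted permutation p = 0.59) and with CAPN3-B -0.033 (adjusted permutation p = 0.75). After the 5 components the r of CAST-B with CAPN3-A was 0.296.

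Among the proteases, CAPN1 and CAPN3-B were correlated at r = 0.292 (permutation p = 2e-05, adjusted p = 0.00024; rho = 0.243, adjusted p = 0.0062). This was 0.296 without the 2 farthest animals, 0.371 in the lower series, -0.174 in the higher and 0.267 within blocks, and after 5 principal components it was -0.047. CAPN1 and CAPN2, the catalytic subunits that calpastatin inhibits, had r = 0.153 (permutation p = 0.028, adjusted p = 0.13). CAPN2 and the 2 CAPN3 probe sets had r of -0.079 and -0.051 (adjusted permutation p = 0.46 and 0.65). In all, 5 of the 36 pairs passed by r.

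**Figure D3:**
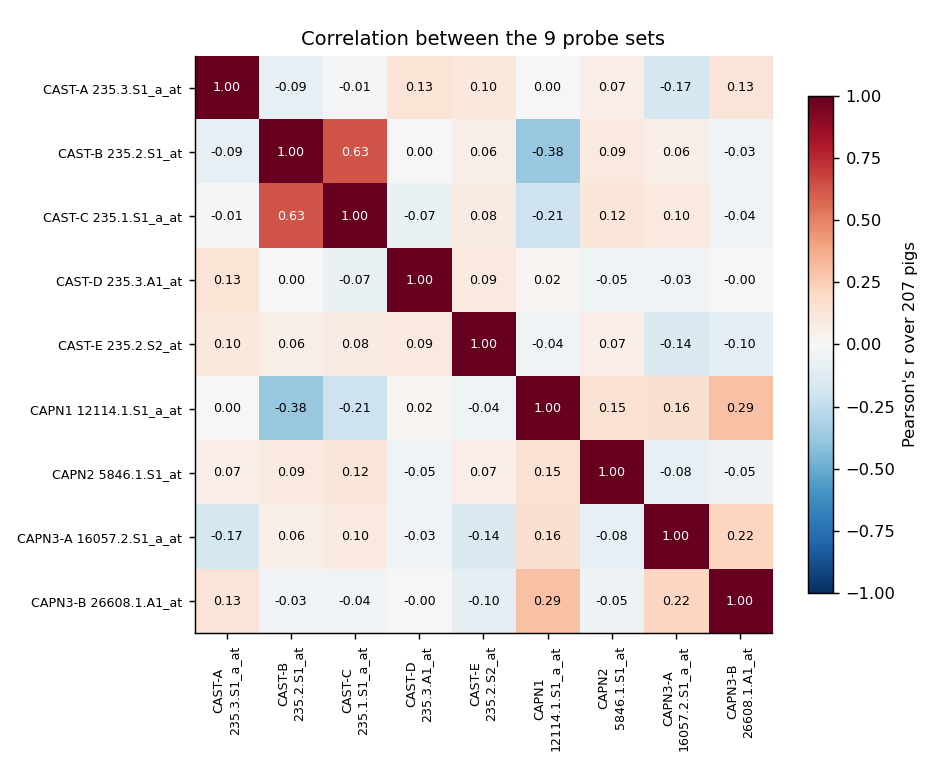
Pearson's r between the 9 probe sets over 207 animals, coloured from -1 (blue) to 1 (red), with r written in each cell. The strongest cell off the diagonal is that of CAST-B with CAST-C at 0.63, and the most negative that of CAST-B with CAPN1 at -0.38.

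The members differed in how much of their variation was shared with the whole array. The first 5 principal components accounted for 61.9% of the variance of CAST-B, 49.6% of that of CAPN1 and 49.4% of that of CAPN3-B, against a median of 21.4% over all probe sets. They accounted for 8.32% of the variance of CAST-A. Blocks of title numbers held 21.6% of the variance of CAPN2, against a median of 7.84%.

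Measures of the RNA and of other cell types moved with several members, with p-values adjusted over all relations of these measures with the 9 members. CAPN3-A was lower where the 3' signal of the actin control exceeded the 5' signal more (r = -0.473, rho = -0.468, adjusted permutation p = 0.00015 for r), and CAPN2 was higher there (r = 0.375, rho = 0.40, adjusted permutation p = 0.00015). Without the 2 farthest arrays these correlations were -0.437 and 0.409, and within blocks -0.505 and 0.354. CAST-A had r = 0.236 with the same measure (adjusted permutation p = 0.0033; 0.278 within blocks), and CAPN1 r = 0.214 (adjusted permutation p = 0.0083; 0.148 within blocks). Other probe sets of the same genes did not share these relations. CAPN3-B had r = 0.138 (adjusted permutation p = 0.11), of the opposite sign to CAPN3-A. The other CAST probe sets had r from -0.076 for CAST-C to 0.097 for CAST-E (smallest adjusted permutation p 0.27). The part of RNA quality in the members' variation was not tested.

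CAPN2 moved with endothelial markers: 5 of 6 had a positive r with it, from -0.090 for KDR to 0.459 for PECAM1, an adhesion protein of endothelial cells. With CAPN1 3 of the 6 were positive, from -0.112 to 0.513 for VWF, the clotting protein von Willebrand factor. All 6 muscle fibre markers had a positive r with CAPN2 too, between 0.045 and 0.299. CAST-B had a positive r with 4 of 4 fibroblast markers, from 0.0025 to 0.323 for the matrix proteoglycan DCN, and CAPN1 had a negative r with all 4, from -0.297 to -0.175. CAPN3-B was negative with all 4 too, from -0.312 to -0.069. All 3 macrophage markers had a negative r with CAPN3-A, from -0.364 to -0.066, and with CAPN3-B, from -0.296 to -0.214. They were also all negative with CAPN1, from -0.2225 to -0.079, and with CAST-D, and all positive with CAST-A, CAST-C and CAPN2. The mean of the 3 had r = -0.292 with CAPN3-A (adjusted permutation p = 0.0025) and -0.295 with CAPN3-B (adjusted permutation p = 0.00036). MYF5, the only satellite cell marker measured, had r = 0.401 with CAST-B (adjusted permutation p = 0.00015), 0.351 with CAST-C (adjusted permutation p = 0.00015) and -0.269 with CAPN1 (adjusted permutation p = 0.00083). It also had r = 0.225 with CAST-A (adjusted permutation p = 0.0062) and 0.198 with CAPN2 (adjusted permutation p = 0.016). The mean of the 3 adipocyte markers had r = -0.216 with CAST-D (adjusted permutation p = 0.0083). With CAPN1 it had r = -0.184 (adjusted permutation p = 0.028), and -0.097 within blocks. For each, 1 of these 3 markers had a positive r. The 3 smooth muscle markers were negative with all 5 CAST probe sets, from -0.264 to -0.107 for CAST-B, and with CAPN3-B, from -0.322 to -0.035. Their mean had r = -0.183 and rho = -0.188 with CAST-A (adjusted permutation p = 0.028 for each). With CAST-B it had r = -0.246 (adjusted permutation p = 0.0027) but rho = -0.119 (adjusted permutation p = 0.19). The blood cell markers split: the globin HBB had r = 0.670 with CAST-B and the haem synthesis enzyme ALAS2 -0.263. Over all probe sets, an absolute r over 0.3 was reached by 20.6% with CAST-B, 16.46% with CAPN1 and 9.075% with CAPN3-B. With CAPN3-A it was 7.053% and with CAPN2 2.131%. The share of all probe sets with an r of 1 sign was not counted, so the counts of markers are not read as a trait of the members. None of the markers of these lists was at the floor on any array, and the part of these cell types in the members' variation was not tested.

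Neither drip loss nor fat area went with the mRNA of the inhibitor or of any calpain beyond the error. With each trait scaled to SD 1, 0 of the 9 members passed the limma test for drip loss at an adjusted p of 0.05, and 0 of 9 had an unadjusted p below it. Over the array 4.61% of the probe sets passed for drip loss and 19.3% had an unadjusted p under 0.05. For fat area 0 of 9 passed and 0 of 9 had an unadjusted p under 0.05, against 0.121% and 7.07% of all probe sets.

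CAST-A had medians of 9.18, 9.17, 9.16 and 9.22 in 4 bins of animals ordered from the lowest to the highest drip loss (n = 52, 52, 51 and 52). The bins overlapped almost entirely, with values from 8.72 to 9.63 in the lowest and from 8.96 to 10.14 in the highest. Its slope on drip loss was 0.014 ± 0.013 log2 units per SD (SE over 207 animals; adjusted p = 0.60 in limma), with a 95% interval from -0.77% to 2.69% per SD. CAST-B had a slope of the other sign, -0.022 ± 0.024 (limma adjusted p = 0.67), with an interval from -4.77% to 1.80%. The dim CAST-E leaned furthest against its error, at -0.025 ± 0.017 (limma p = 0.14, adjusted p = 0.43). Its r with drip loss was -0.102, -0.060 in the lower series and -0.302 in the higher (n = 33).

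The calpains were as flat along drip loss. CAPN1 had medians of 8.78, 8.80, 8.83 and 8.78 in the 4 bins and a slope of -0.0095 ± 0.018 (SE, limma adjusted p = 0.84), with an interval from -3.13% to 1.89% per SD. CAPN2 had medians of 10.68, 10.74, 10.70 and 10.75 and a slope of -0.0028 ± 0.016 (limma adjusted p = 0.95), with an interval from -2.39% to 2.06%. CAPN3-A had medians of 10.62, 10.59, 10.64 and 10.59 and a slope of 0.0096 ± 0.019 (limma adjusted p = 0.84), with an interval from -1.94% to 3.33%. CAPN3-B had a slope of -0.011 ± 0.029 (limma adjusted p = 0.88), with an interval from -4.63% to 3.22%. Over all 9 probe sets the intervals ran from -4.77% to 3.55% per SD of drip loss. In simulated data of the same size, 96% of the probe sets given a drip loss slope of 0.1 log2 units per SD were recovered, and 32% of those with 0.05. These shares pool probe sets over the members' range of SD, so they can be too high for the most variable members.

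Fat area gave the same picture, with CAPN2 the member that leaned most. CAPN2 had medians of 10.77, 10.73, 10.61 and 10.73 in the 4 bins from the leanest to the fattest animals (n = 50, 50, 49 and 50) and a slope of -0.026 ± 0.017 log2 units per SD of fat area (SE, limma p = 0.12, adjusted p = 0.79). Its rank correlation with fat area was -0.142 (permutation p = 0.047, adjusted p = 0.82 over 18 relations) and its r was -0.110 (adjusted permutation p = 0.94), -0.138 without the 2 farthest animals, -0.157 in the lower series and 0.294 in the higher (n = 25). With blocks in the fit the slope was -0.041 ± 0.016 (limma p = 0.0096, adjusted p = 0.44). PECAM1, the endothelial marker that moved with CAPN2, had a slope of -0.083 ± 0.021 per SD of fat area (limma adjusted p = 0.072), and its part in the CAPN2 slope was not tested.

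For the other members the fat area slopes were smaller against their errors. CAST-A had a slope of 0.00067 ± 0.013 (limma adjusted p = 0.997), CAPN1 of -0.0011 ± 0.019 (adjusted p = 0.996) and CAPN3-A of 0.015 ± 0.020 (adjusted p = 0.93). The intervals of all 9 probe sets lay between -4.34% and 5.70% per SD of fat area. In the fit with both traits, 0 of 9 differed between drip loss and fat area (0 with an unadjusted limma p under 0.05), where 0.347% of all probe sets did.

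**Figure D4:**
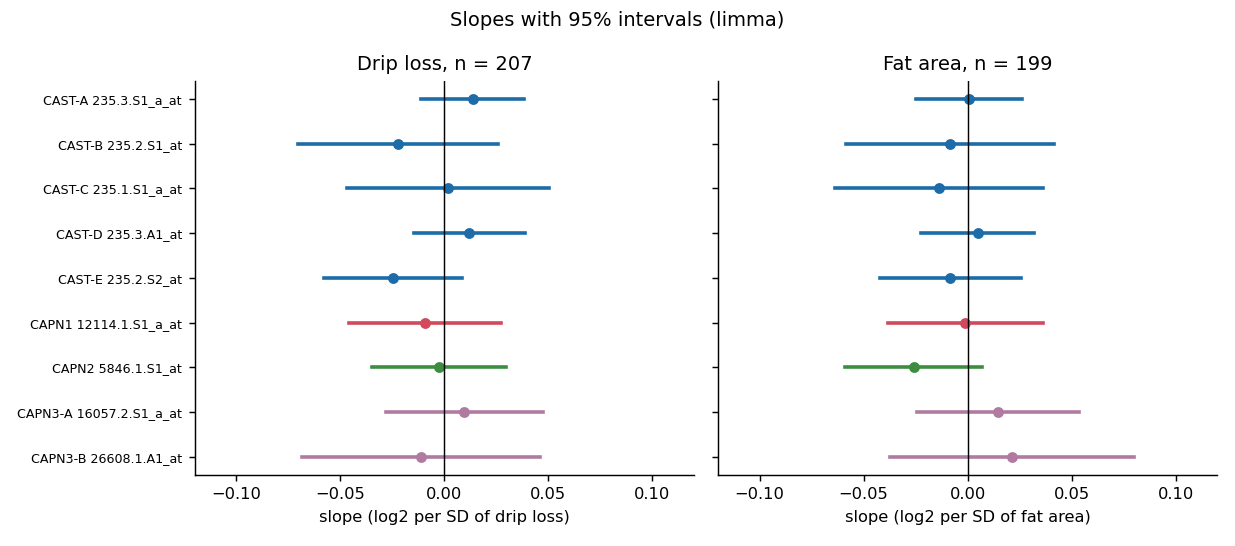
Slopes of the 9 probe sets in log2 units per SD of drip loss (left, n = 207) and of fat area (right, without the 8 animals that lack it), with points for the limma estimate and lines for its 95% interval, coloured by gene. Every line crosses 0, and CAPN2 leans furthest from it against its error on the right, at -0.026.

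**Figure D5:**
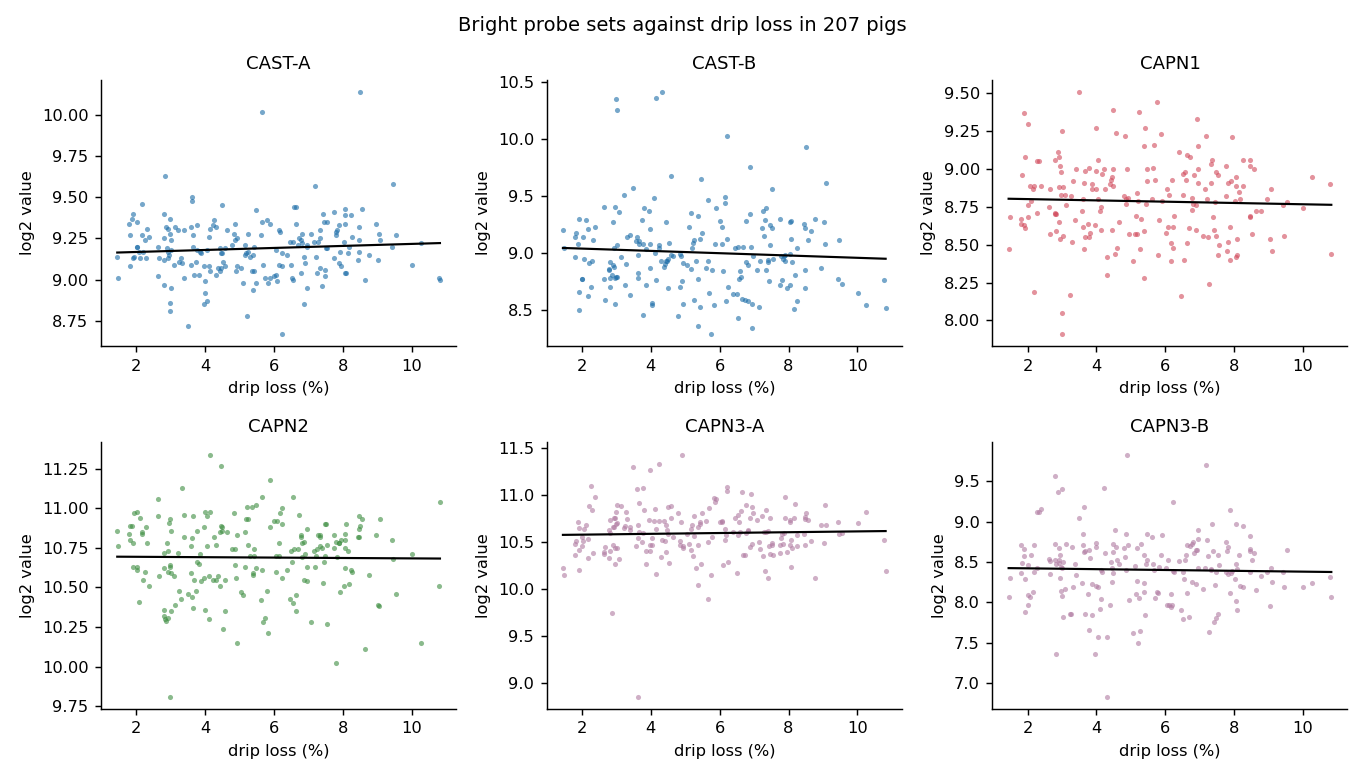
Log2 values (vertical axes) of the 6 probe sets with a mean above 6.10 against drip loss in percent (horizontal axes), 1 point per animal (n = 207), with the fitted slope as a line. The lines are nearly level in all 6 panels, with slopes from -0.022 to 0.014 log2 units per SD.

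The balance of inhibitor to protease was taken per animal as the log2 value of CAST minus that of a calpain, each by its probe set of highest mean. Its mean has no meaning, since probes of different genes are not comparable, but its spread has. The CAST minus CAPN1 balance had an SD of 0.32 log2 units and an interquartile span of 1.29-fold, and the CAST minus CAPN2 balance an SD of 0.28 and a span of 1.28-fold. The CAST minus CAPN3 balance had an SD of 0.35, and 0.28 without the low-correlation arrays. Values of the same SDs with no correlation would give an SD of 0.32 for CAPN1, 0.29 for CAPN2 and 0.33 for CAPN3.

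With no covariate and all arrays, the balance leaned little with either trait, and its values are given with no test. Its slope per SD of drip loss was 0.023 ± 0.022 log2 units for CAPN1, 0.016 ± 0.020 for CAPN2 and 0.0040 ± 0.025 for CAPN3 (SE, n = 207). Per SD of fat area it was 0.0017 ± 0.023, 0.027 ± 0.020 and -0.014 ± 0.026 (SE). With CAST-B as the inhibitor, an option added after the data were seen, the SD of the CAST minus CAPN1 balance was 0.52, and the drip loss slopes took the other sign: -0.013 ± 0.036, -0.020 ± 0.028 and -0.032 ± 0.030.

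The genes most like each member over the 207 arrays were sought among 4883 genes, as a description without a test. CAST-A had no close match: the highest were NAGPA, a Golgi enzyme that uncovers the mannose 6-phosphate tag of lysosomal enzymes, at r = 0.443, PROM2 at 0.442, QPCTL, a Golgi glutaminyl cyclase, at 0.433, LY86 at 0.427 and SLC37A1 at 0.418. Its most negative were WDR37 at -0.349, ETFDH, which passes electrons from fatty acid oxidation to the respiratory chain, at -0.343 and RBM7 at -0.341. For CAST-B, looked up after its values were seen, ACTR2, a subunit of the actin-branching Arp2/3 complex, reached 0.752 and EIF2A 0.718, and after 5 principal components these were 0.229 and 0.275.

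CAPN1 had closer company. PRRC2A reached 0.702, CDIP1 0.692, PKD1, the membrane protein polycystin-1, 0.682, LSM2 0.668 and SPTAN1, the membrane skeleton protein alpha-II spectrin, 0.666, and after 5 principal components they stood between 0.256 and 0.468. The most negative were KLHL41, a protein that sustains sarcomeres, at -0.649, LOC100512448 at -0.632 and PPP1CB, a catalytic subunit of protein phosphatase 1, at -0.626. After the 5 components these were -0.215, -0.189 and -0.284.

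CAPN2 was most like DAB2, an adaptor of endocytosis, at 0.466, followed by PECAM1 at 0.459, S100A10, the partner of annexin A2, at 0.452, SEPT11, a septin, at 0.452 and PTBP1, a regulator of splicing, at 0.439. Its most negative were the deacetylase SIRT2 at -0.388, TICAM2 at -0.371 and BCL2L13 at -0.358. CAPN3-A was most like USP21, a deubiquitinase, at 0.672, AUP1 at 0.639, DCP1A, a factor of mRNA decapping, at 0.609, ACR at 0.595 and KLC1, a kinesin light chain, at 0.592. SEC61B at -0.479, ZKSCAN5 at -0.460 and CNIH1 at -0.455 were its most negative. CAPN3-B, looked up after its values were seen, was most like FOXO1, a transcription factor that drives muscle atrophy genes, at 0.624.

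Few other genes of the family were measured, 3 of 14 on the list: CAPN7, CAPN10 and CAPNS1, the small subunit that calpain 1 and calpain 2 share. CAPNS1 had 2 probe sets, with an r of 0.245 between them. CAPNS1-B ran from 8.5 through 9.07 to 9.89 and had r = 0.420 with CAPN1, 0.193 with CAPN2 and 0.146 with CAPN3-A. Without the low-correlation arrays these were 0.389, 0.027 and 0.244, so the CAPN2 value rested on those arrays, and its rho over all arrays was 0.095. CAPNS1-A ran from 7.92 through 9.34 to 10.83 and had r = 0.174, -0.112 and 0.285 with them, and 0.195, -0.063 and 0.342 without the low-correlation arrays. CAPN7 varied with CAST-B (r = 0.567) and against CAPN1 (r = -0.404).

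Of the related lists, 0 genes passed for either trait, where 6.08% of all genes passed for drip loss and 0.148% for fat area with 1 probe set per gene. Among the other calpains, the drip loss slope of CAPN10 was 0.021 ± 0.011 per SD (SE, limma adjusted p = 0.30) and that of CAPNS1 -0.034 ± 0.031 (adjusted p = 0.60). The lysosomal cathepsins and their cystatin inhibitors, 10 of 14 measured, had 9 positive slopes for drip loss, with a median of 0.022 against 0.0080 over all 6765 genes. For fat area 0 of 10 were positive and the median was -0.035, against -0.0015 over all genes. Other lists leaned to 1 side as well. For fat area 0 of 4 caspase, 0 of 6 endothelial (median -0.049) and 0 of 3 macrophage genes were positive, but 4 of 6 muscle fibre genes were. For drip loss 4 of 4 lymphocyte markers were positive. The share of all genes with a positive slope was not counted. CTSK, a collagen-cutting cathepsin, had a drip loss slope of 0.081 ± 0.031 (limma adjusted p = 0.12) and CST3, the secreted inhibitor cystatin C, of -0.033 ± 0.015 (adjusted p = 0.20).

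Of the calpain substrates of the sarcomere and membrane skeleton 13 of 17 were measured, with 5 positive slopes for drip loss and a median of -0.0046. VCL, the membrane anchor vinculin, had a slope of -0.040 ± 0.018 (SE, limma adjusted p = 0.17) and MYOT, the Z-disc protein myotilin, of -0.027 ± 0.013 (adjusted p = 0.25). Of 6 partners of calpain 3, 2 were measured: CMYA5 had a slope of -0.075 ± 0.038 (limma adjusted p = 0.25) and ANKRD1, a titin-bound stress protein, of -0.084 ± 0.050 (adjusted p = 0.36). Of the caspases and their inhibitors 4 of 12 were measured, and CASP6 had a slope of 0.045 ± 0.021 (limma adjusted p = 0.22) and CASP2 of -0.0086 ± 0.013 (adjusted p = 0.77).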

How the data were processed

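Muscle RNA of 207 pigs was profiled with 1 array each. The deposited log2 values were made by the authors with GCOS 1.1.1 and PLIER, per the submitters' processing notes; any scaling between arrays is not given in the sources used here, and the values were used as they stand, with a floor at 4. Of 24123 probe sets 188 controls were left out. For each of the other 23935 a slope on the trait, in units of its SD, was fitted (limma 3.58.1, R 4.3.3; Benjamini-Hochberg over all, threshold 0.05, two-sided). Correlations used 100000 permutations (scipy 1.17.1). Blocks are runs of 100 title numbers. For a gene with several probe sets, the highest mean stood for it in lists and balances. Named genes were all members, the 5 genes of highest and the 3 of lowest r with each member's brightest probe set, the 2 of smallest drip loss p of each list, and the brightest of each marker list; KDR, VWF, HBB and CAPN7, and the genes most like CAST-B and CAPN3-B, were named after their values were seen. The members and lists were chosen with earlier results of these data known. In simulated data the fit recovered 98% of fat area slopes of 0.1, with 7 false calls, and made 9 for drip loss. The simulated noise was independent between probe sets, unlike that of the arrays. More slopes were planted than the 29 probe sets that the real fat area fit called, so the real threshold on p was stricter and recovery there may be lower.

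The brightest markers of the other lists averaged 10.72 (FABP4, adipocyte), 11.29 (DCN, fibroblast), 9.21 (PECAM1, endothelial), 12.00 (ACTA2, smooth muscle), 7.37 (CD163, macrophage), 5.58 (PTPRC, lymphocyte), 7.13 (ALAS2, blood cell), 7.41 (S100B, nerve and Schwann cell) and 6.33 (MYF5, satellite cell) log2 units.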

Additional observations from a re-analysis of the deposited data

How the results depend on the processing

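Under 18 alternatives per trait (other normalizations, covariates and left-out arrays), 0 member slopes for drip loss and 0 for fat area passed in limma (smallest adjusted p 0.35 and 0.44). The sign of 22 and 14 slopes turned, and the cause was not tested. For drip loss these were CAST-C with quantile normalization (-0.00040), the number series (-0.0013), the lower series alone (-0.0047), the actin difference (-0.0014) and fibroblast markers (-0.0059); CAST-B with blocks (0.0045), 5 principal components (0.0047) and blocks without the low-correlation arrays (0.0068); and the mean of all CAST probe sets (-0.0039). CAPN1 turned in the lower series (0.0044), with blocks without the low-correlation arrays (0.0044) and with fibroblast markers (0.00075). CAPN2 turned with the number series (0.00039), blocks (0.015), 5 components (0.013), the actin difference (0.0073) and blocks without the low-correlation arrays (0.0044). CAPN3-B turned without the low-correlation arrays (0.024), also with blocks (0.029), and with fibroblast markers (0.0017), CAPN3-A with the actin difference (-0.0053) and the mean of both CAPN3 probe sets (-0.00089). For fat area CAST-A turned with blocks (-0.0023), in the lower series (-0.00025) and without the arrays that lack spike-in signal (-0.0026), the mean of CAST probe sets (-0.0051), CAST-B with 5 components (0.0046) and without the low-correlation arrays (0.0062; with blocks 0.0066), and CAST-D without those arrays (-0.00084). CAPN1 turned with 5 components (0.0071), normal scores (0.0012), without the arrays that lack spike-in signal (0.0021), with blocks without the low-correlation arrays (0.0025) and with Y-linked signal (0.0052), and CAPN3-B with Y-linked signal (-0.010). After 5 components the correlation of CAPN1 with CAPN3-B was -0.047.

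For drip loss 4.61% of all probe sets passed, against 10.6% of those with a mean above the median, 0.623% with blocks, 0.823% in the lower series (fewer animals), 0.0543% with 5 components, 0.831% without the low-correlation arrays and 0.355% with both changes. For fat area 0.121% passed, against 0.384% with 5 components and 0% with Y-linked signal in the limma fit (1165 at an unadjusted p under 0.05). No paired analysis was possible because all animals form 1 group. The number of arrays limits what the slopes can show.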

Other observations

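A few animals stood at the ends of several members at once. The 2 highest values of CAST-A, 10.14 and 10.02, came from animals with a drip loss of 8.51% and 5.66%, the second on a low-correlation array, the one with the lowest median correlation of all (0.944). The first lay 5.33 SD above the mean there, 2.62 SD above it on CAST-B and 2.56 SD on CAST-C, although these probe sets did not follow CAST-A over all animals. Another animal, on a low-correlation array and with a drip loss of 2.99%, had the lowest CAPN1 (7.91) and the lowest CAPN2 (9.81) together with a CAST-B value 3.81 SD above the mean and a CAST-A value 2.12 SD below it. The animal highest on both CAPN3 probe sets, with 11.43 and 9.83, was also on a low-correlation array.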
